A study of Mus musculus with 6 samples.

Results

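Zinc handling in the liver was examined through 8 genes, *Mt1*, *Mt2*, *Mtf1*, *Slc30a1*, *Slc30a10*, *Slc39a4*, *Slc39a5* and *Slc39a14*, taken by name from the 21528 genes listed in any library. All 8 were listed in each of the 6 libraries. The 8 genes were chosen by their FPKM in WT and knockin livers, which were already known. Their differences between the genotypes are therefore given as a description, with values, SDs and standard errors but no p-value, and nothing is read from how many of them differed. The 6 libraries, 3 for each genotype, came from whole liver of WT and homozygous TRIM24 C52/55A mice on a C57BL/6 background, aged 5 months and fed the high-fat diet (60% fat) for 3 months. The labels number the libraries 1 to 3 within each genotype and do not say that each is a separate mouse, so the errors measure the spread between these samples. The knockin puts alanine in place of 2 cysteines in the RING domain of the ubiquitin ligase TRIM24. It is present in every tissue, so a difference in liver mRNA need not begin in hepatocytes. The WT mice were littermates from matings of heterozygotes, both groups ate the same diet, and livers of mice on chow were not analysed here. Hepatocyte mRNAs were high in all libraries (*Apoa1*, 5556 to 8183 FPKM), but *Alb* and *Tf*, also hepatocyte markers, were listed in no library. A gene that is not listed therefore need not be at 0. FPKM are fragment counts scaled by transcript length and library depth, so levels of different genes can be set side by side. Less mRNA per cell and fewer cells of a type cannot be told apart in such whole-tissue samples.

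Metallothioneins are small, cysteine-rich proteins that hold zinc and copper in the cytosol. Their genes are switched on by MTF-1, a transcription factor that senses free zinc and binds metal response elements, and in the liver also by glucocorticoids and by inflammatory cytokines. Zinc crosses membranes through 2 families of transporters. The SLC30 (ZnT) proteins move it out of the cytosol, and the SLC39 (ZIP) proteins move it in.

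The 250 bases before the RefSeq starts of *Mt1*, *Mt2* and *Slc30a1* are shown because all 3 are textbook targets of MTF-1, while their mRNAs differed in how they stood between the genotypes. Capitals mark matches to the core of the metal response element, TGCACNC or TGCGCNC, searched on both strands. A match on the reverse strand appears as its reverse complement. The sequences are from RefSeq (GRCm38.p6), + strand, at chr8:94178839-94179088 for *Mt1*, chr8:94172368-94172617 for *Mt2* and chr1:191906531-191906780 for *Slc30a1*.
Mt1: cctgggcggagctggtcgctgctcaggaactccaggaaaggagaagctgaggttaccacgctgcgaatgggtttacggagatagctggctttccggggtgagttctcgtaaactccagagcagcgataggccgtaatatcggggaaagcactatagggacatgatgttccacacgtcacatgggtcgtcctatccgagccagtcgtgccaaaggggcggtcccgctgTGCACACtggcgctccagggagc
Mt2: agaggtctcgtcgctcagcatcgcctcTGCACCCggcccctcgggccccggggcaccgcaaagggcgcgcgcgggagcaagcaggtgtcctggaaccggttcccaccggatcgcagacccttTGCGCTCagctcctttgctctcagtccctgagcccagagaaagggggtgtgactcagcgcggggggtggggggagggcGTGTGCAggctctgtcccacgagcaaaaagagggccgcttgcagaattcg
Slc30a1: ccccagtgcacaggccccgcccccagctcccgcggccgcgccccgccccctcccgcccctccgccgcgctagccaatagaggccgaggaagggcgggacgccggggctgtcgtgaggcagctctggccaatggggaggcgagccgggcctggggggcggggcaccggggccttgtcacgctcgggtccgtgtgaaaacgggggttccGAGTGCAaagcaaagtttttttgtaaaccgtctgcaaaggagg

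The *Mt2* window held 3 matches, 223, 128 and 50 bases before the start (counted from the first base of the match on the strand shown). The *Mt1* window held 1, 23 bases before the start, and the *Slc30a1* window held 1, 43 bases before it. Of 32851 promoter windows of this length, 21.4% held at least 1 match and 1.26% held at least 3. With the 50 bases after the start included, *Mt1* had 3 matches, *Mt2* 4 and *Slc30a1* 2, and 1.97% of all windows of 300 bases had at least 3. The starts differ between annotations. RefSeq begins *Mt1* at the base after its window, while GENCODE M21 has transcripts beginning at 94179082, 94179211 and 94179241, so other upstream sequence belongs to the later starts. For *Mt2*, GENCODE M21 has transcripts beginning at 94172664 and 94172860, past the end of the window at 94172617. The bases just before those starts are not shown. *Slc30a10* also had 3 matches, 2 of which overlap. *Mtf1* had 0, and the 2 windows of *Slc39a5* had 1 and 0. Windows of 6 of the 8 genes were in the table, without *Slc39a4* and *Slc39a14*. A match is a run of letters and not a binding site, and its absence says only that the letters are not in the window.

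*Mt1* and *Mt2*, the metallothioneins of the liver, were both lower in the TRIM24 C52/55A livers, at 25.8% and 23.7% of the WT mean. In WT libraries 1 to 3, *Mt1* stood at 16.7, 20.6 and 18.3 FPKM, against 5.14, 5.30 and 3.94 FPKM in knockin libraries 1 to 3. All 3 knockin libraries were far below the lowest WT library, and the groups did not overlap. The means were 18.6 ± 1.97 and 4.79 ± 0.745 FPKM (SD, n = 3 each), and the WT mean was 3.87 times the knockin mean. *Mt2* stood at 6.20, 5.57 and 8.10 FPKM in WT, against 1.56, 2.30 and 0.843 FPKM in the knockin. Its groups did not overlap either, and TRIM24 C52/55A replicate 3 was the lowest library for both genes. The *Mt2* means were 6.62 ± 1.32 and 1.57 ± 0.726 FPKM (SD, n = 3 each), with a WT mean 4.22 times the knockin mean. On log2(FPKM + 1), the scale of all fold changes below, the differences (knockin minus WT) were -1.76 (standard error 0.12) for *Mt1* and -1.60 (standard error 0.21) for *Mt2*. This scale understates the difference of genes of low FPKM. Among the 12225 genes whose mean reached 0.5 FPKM, *Mt1* had the 28th and *Mt2* the 40th lowest fold change.

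**Figure D1:**
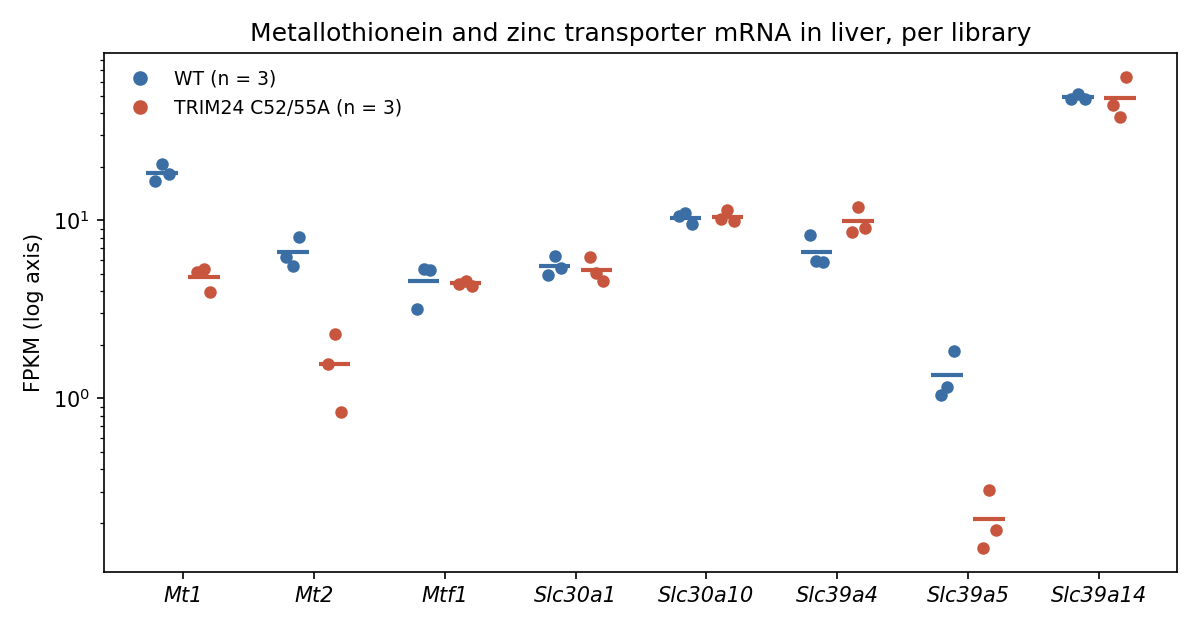
FPKM of the 8 genes (log axis) in the 3 WT and 3 TRIM24 C52/55A libraries, with each point a library and each bar the mean of its group. Points of the 2 genotypes are apart for *Mt1*, *Mt2*, *Slc39a4* and *Slc39a5*, with *Slc39a4* the one that was higher in the knockin livers, and they overlap for the other 4 genes.

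The 2 metallothionein genes are neighbours on chromosome 8. The ratio of *Mt1* to *Mt2* was 2.70, 3.71 and 2.26 in WT, against 3.29, 2.31 and 4.67 in the knockin, in the order of the replicate numbers. The ratios of the genotypes overlapped. The mean log2 ratio was 1.5 ± 0.362 in WT and 1.72 ± 0.508 in knockin livers (SD, n = 3 each), a difference of 0.22 that is smaller than either SD. With so few libraries and so wide a spread, this does not show that the genes moved in the same proportion. Their sum was 25.2 ± 1.96 FPKM in WT and 6.36 ± 1.44 FPKM in knockin livers (SD, n = 3 each). The mRNAs of the 2 genes are alike, and how the authors' counting split fragments between them is not given in the sources used here. The sum of FPKM also depends on that split, since each gene is scaled by its own length.

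The low values rest on few fragments. From the steps between the lowest values of genes with 1 annotated transcript, 1 fragment per kilobase was worth 0.0607 to 0.0632 FPKM, which puts the libraries at about 15800000 to 16500000 fragments. *Mt1* and *Mt2* transcripts are short, at 549 to 1085 and 388 to 511 bases in GENCODE M21. By these lengths, *Mt2* in the knockin livers stood for about 5.2 to 18.9 fragments per library, and *Mt1* for about 34.2 to 92.6. In WT livers the same reckoning gave 35.6 to 66.7 fragments for *Mt2* and 149.9 to 368.9 for *Mt1*. Counting error alone is therefore wide for *Mt2* in the knockin, and whether its 3 knockin libraries differ beyond it was not tested. The intervals of the files also matter. That of *Mt1* (chromosome 8, 94179081 to 94180327) matched the GENCODE M21 gene on GRCm38, whereas that of *Mt2* (94170747 to 94173568) is 2.8 kb long where the annotated gene has 0.9 kb.

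The rest of the locus was set beside them. *Mt3* and *Mt4*, the metallothioneins of brain and of stratified epithelium, lie next to *Mt2* on the same strand, and neither was listed in any library. For 7 of the other genes tested within 250 kb, a window chosen after the values of *Mt1* and *Mt2* were seen, limma called 0 after Benjamini-Hochberg adjustment over all genes, and 0 were under 0.05 before adjustment. Over all genes tested these shares were 7.72% and 23.6%, so 0 of 7 does not set the window apart. Their fold changes ran from -0.16 for *Gm15889* to 0.11 for *Bbs2*, a protein of the cilium. *Nup93*, a nucleoporin gene and the nearest tested neighbour on the *Mt1* side, had 2.19 FPKM in WT and 2.13 FPKM in knockin livers.

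**Figure D2:**
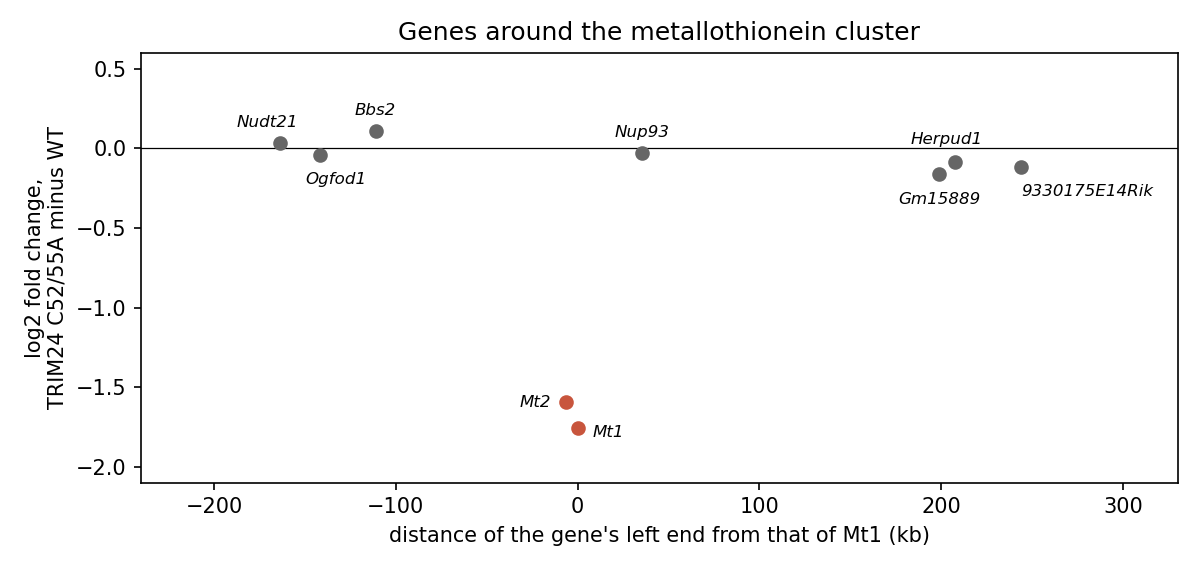
Fold change (TRIM24 C52/55A minus WT, on log2(FPKM + 1)) of *Mt1*, *Mt2* and 7 of the other genes tested within 250 kb, against the distance of each gene's left end from that of *Mt1* in kb. *Mt1* and *Mt2* lie at -1.76 and -1.60, and the 7 others between -0.16 and 0.11.

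*Mtf1*, which encodes the zinc-sensing factor itself, overlapped between the genotypes. The 3 WT values were 3.16, 5.30 and 5.29 FPKM, and the 3 knockin values 4.41, 4.59 and 4.29 FPKM. The 3 knockin libraries lay inside the WT range, which WT replicate 1 widened at its lower end. The fold change was -0.02 (standard error 0.16). Its sign turned to 0.07 with median-of-ratios scaling and to 0.04 with quantile normalization. The files' interval for *Mtf1* runs to chromosome 4, 124862171, past the annotated end at 124849800, and covers *Yrdc*, *Maneal* and 1110065P20Rik. mRNA alone does not show how much MTF-1 is active, since the factor is controlled by zinc.

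*Slc30a1* (ZnT1), the zinc exporter of the plasma membrane and itself a target of MTF-1, overlapped between the genotypes where the metallothioneins did not. Its WT values were 4.91, 6.32 and 5.39 FPKM, and its knockin values 6.26, 5.05 and 4.58 FPKM. The groups overlapped over most of their range. The fold change was -0.06 (standard error 0.13), and it turned to 0.03 with median-of-ratios scaling and to 0.01 with quantile normalization. *Slc30a10* (ZnT10), which exports manganese from hepatocytes, gave 10.5, 11.0 and 9.59 FPKM in WT, against 10.2, 11.4 and 9.93 FPKM in the knockin. The groups overlapped, and the fold change was 0.02 (standard error 0.09). It was -0.04 with TPM (values rescaled to the same total in each library).

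The 3 SLC39 importers among the 8 genes went different ways. *Slc39a14* (ZIP14), which brings zinc, manganese and iron not bound to transferrin into hepatocytes, was the most abundant of the 8 in both genotypes. WT libraries held 47.8, 51.2 and 48.2 FPKM of it, and knockin libraries 44.5, 37.8 and 64.2 FPKM. The knockin libraries lay on both sides of the WT libraries and spread far more (means 49.1 ± 1.87 and 48.9 ± 13.7 FPKM, SD, n = 3 each). The fold change was -0.04 (standard error 0.17). It was 0.06 with median-of-ratios scaling and 0.11 with quantile normalization. As an iron importer, *Slc39a14* also belongs to iron handling, where *Hamp*, the iron-regulating hormone hepcidin, was higher in the knockin livers (841 ± 28.8 FPKM in WT and 1327 ± 230 FPKM in knockin livers, SD, n = 3 each).

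*Slc39a4* (ZIP4), the intestinal zinc importer whose loss causes the zinc deficiency acrodermatitis enteropathica, was higher in the knockin livers. WT libraries held 8.27, 5.89 and 5.81 FPKM of it, and knockin libraries 8.66, 11.9 and 9.11 FPKM. The groups did not overlap, but the highest WT library lay close below the lowest knockin library. The means were 6.66 ± 1.40 and 9.90 ± 1.78 FPKM (SD, n = 3 each), a ratio of 1.49, and the fold change was 0.51 (standard error 0.16). *Slc39a5* (ZIP5), an importer of the basolateral membrane of enterocytes and pancreatic acinar cells, was the least abundant of the 8. WT libraries held 1.05, 1.16 and 1.85 FPKM of it, and knockin libraries 0.144, 0.306 and 0.183 FPKM. Each knockin library was below each WT library, and the WT mean (1.35 ± 0.434 FPKM) was 6.41 times the knockin mean (0.211 ± 0.0848 FPKM; SD, n = 3 each). The fold change on log2(FPKM + 1) was -0.94 (standard error 0.15).

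*Slc39a5* passed the filter on low values only through its WT level, since its knockin mean was under 0.5 FPKM. By the annotated transcript lengths (648 to 2025 bases), the knockin values stand for about 1.5 to 10 fragments per library and the WT values for about 11.1 to 60.4. The files give *Slc39a5* an interval of 34.4 kb on chromosome 10 (128377114 to 128411492), against 5.3 kb in GENCODE M21, which covers the coding genes *Ankrd52* and *Nabp2*. Whether fragments of these genes were assigned to it was not tested. *Ankrd52* had 5.598 ± 0.469 FPKM in WT and 5.74 ± 0.522 FPKM in knockin livers, and *Nabp2*, a DNA damage protein, had 20.6 ± 0.710 and 17.2 ± 0.406 FPKM (SD, n = 3 each). Acinar cells of the pancreas also make *Slc39a5*. Of 7 acinar markers, *Pnlip*, *Ctrb1* and *Prss2* were not listed, and the summed FPKM of the other 4 was 0.0767 to 0.206 in WT and 0.0210 to 0.428 in knockin libraries. The part of acinar cells in the *Slc39a5* values was not tested.

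Set in order of level, the WT livers had *Slc39a14* first (49.1 FPKM), then *Mt1* (18.6), *Slc30a10* (10.4), *Slc39a4* (6.66), *Mt2* (6.62), *Slc30a1* (5.54), *Mtf1* (4.58) and *Slc39a5* (1.35). Each gene from *Slc39a4* to *Slc30a1* overlapped with the next in its libraries, although *Mtf1* stayed below *Slc39a4* and *Mt2* in all of them. In the TRIM24 C52/55A livers *Mt1* (4.79 FPKM) stood at rank 5, its libraries overlapping with those of *Slc30a1* above and *Mtf1* below, and *Mt2* (1.57 FPKM) stood at rank 7.

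Read against the whole table, limma called 944 of 12225 genes (7.72%) at an adjusted p-value of 0.05 after Benjamini-Hochberg adjustment. Of these, 744 (6.09%) were lower in the knockin livers and 200 (1.64%) higher. With median-of-ratios scaling the split was 411 lower and 249 higher, and with quantile normalization 378 and 255. Of the 8 genes, *Mt1*, *Mt2* and *Slc39a5* were among the lower ones and 0 among the higher ones. The groups did not overlap for 4 of the 8 genes and for 28.9% of all genes tested. Nothing is read from either count, because the choice of the 8 genes used this comparison. The median fold change was -0.05 over the 8 genes and -0.075 over all genes tested, and the latter was -0.135 with TPM, 0.006 with median-of-ratios scaling and 0.01 with quantile normalization. Before adjustment, 23.6% of all genes tested had a p-value under 0.05, the share against which all such counts stand.

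The other 19 genes of the 2 transporter families were listed by family membership, less *Slc30a1*, *Slc30a10*, *Slc39a4*, *Slc39a5* and *Slc39a14*. Those left out had been chosen by their FPKM in the 2 genotypes, and *Slc39a5*, which was called, was among them. The counts over the rest therefore depend in part on that choice and are a description. Of the 19 genes, 15 reached a mean of 0.5 FPKM. Limma called 0 of the 15 at an adjusted p-value of 0.05, with 1 under 0.05 before adjustment. The 1 was *Slc39a11* (ZIP11), with 13.1 ± 1.88 FPKM in WT and 9.71 ± 0.472 FPKM in knockin livers (SD, n = 3 each) and a fold change of -0.39 (adjusted p = 0.0746 from limma), which passed with TPM only, and it was named after its values were seen. The 5 exporters ran from -0.12 to 0.07 and the 10 importers from -0.39 to 0.27. *Slc39a7* (ZIP7), which releases zinc from the endoplasmic reticulum, was the most abundant of the 15, with 37.8 ± 1.13 FPKM in WT and 34.0 ± 3.56 FPKM in knockin livers (SD, n = 3 each). Its fold change was -0.15, with a 95% interval from -0.36 to 0.05. *Slc39a1* (ZIP1), an importer of the plasma membrane, had -0.12, with a 95% interval from -0.31 to 0.08. *Slc30a9* had -0.10, and *Slc30a5* (ZnT5), which loads zinc into the secretory pathway, had 0.07. The other 4 (*Slc30a2*, *Slc30a3*, *Slc30a8* and *Slc39a12*) were too low to test. Summed over all 14 importers, members included, the libraries held 171 to 175 FPKM in WT and 152 to 177 FPKM in knockin livers, and over all 10 exporters 55.4 to 62.2 and 56.6 to 59.7 FPKM.

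**Figure D3:**
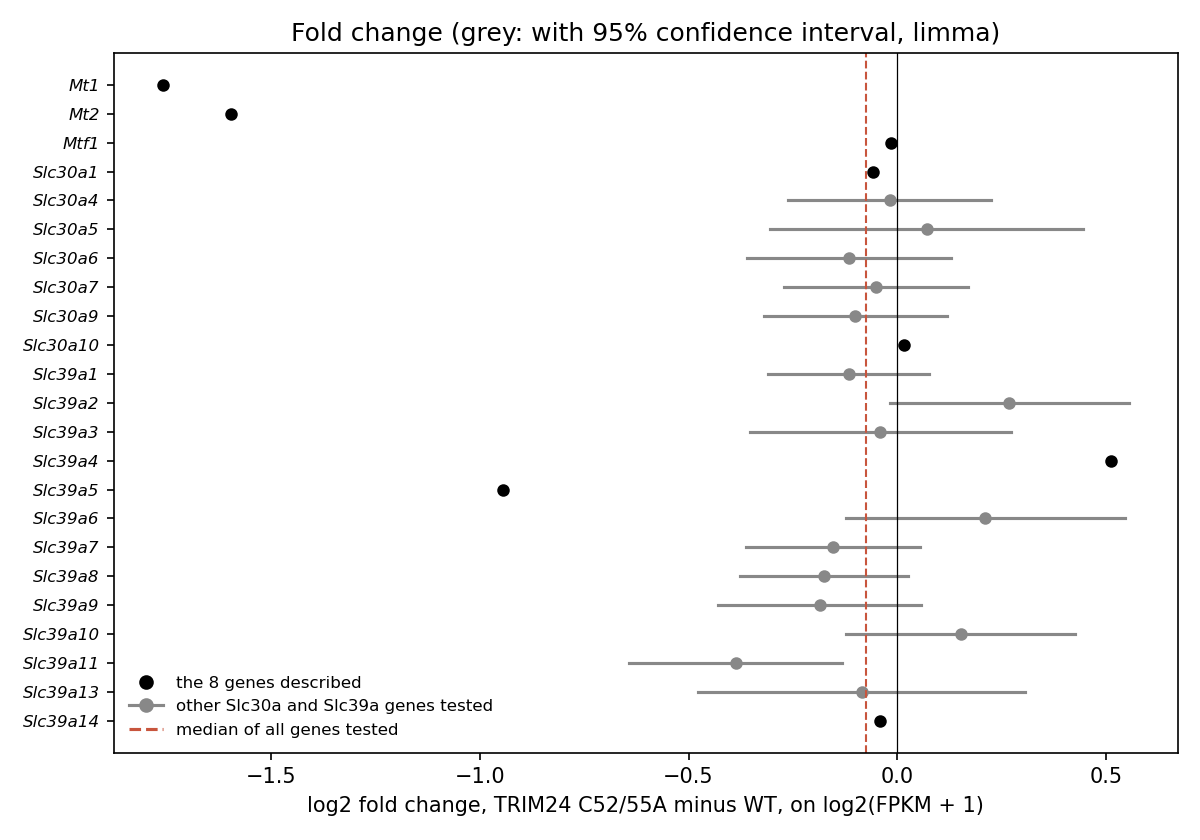
Fold change (TRIM24 C52/55A minus WT, on log2(FPKM + 1)) of the 8 genes (black, points only) and of the 15 other *Slc30a* and *Slc39a* genes tested (grey, with 95% confidence intervals from limma), with the median of all genes as a dashed line at -0.075. *Mt1*, *Mt2* and *Slc39a5* lie apart on the lower side, *Slc39a4* on the higher side, and most grey intervals cross 0.

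Other genes known to respond to MTF-1, and genes of copper and manganese handling, were listed from general knowledge. These lists were made with earlier results of these data known, so the counts over them are a description. Of 5 other MTF-1 targets, 1 fell, where 6.09% of all genes tested did. *Gclc*, the catalytic subunit of the enzyme that starts glutathione synthesis, went from 138 ± 12.4 to 95.1 ± 5.50 FPKM (SD, n = 3 each; fold change -0.53, adjusted p = 0.0132 from limma). *Gclc* also answers to oxidative stress through NRF2. The remaining 4 were not called, among them *Selenow*, a selenoprotein, at -0.07, and *Slc39a10*, which also stands among the transporters above. With quantile normalization, or with WT replicate 1 or 3 left out, 0 of the 5 were called.

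Of 11 copper genes tested, 2 fell and 0 rose (6.09% and 1.64% of all genes tested), with a median fold change of -0.14. *Atox1*, the chaperone that hands copper to the export pumps, went from 122 ± 8.66 to 87.7 ± 2.23 FPKM (fold change -0.47, adjusted p = 0.0127 from limma). *Sod1*, the copper and zinc superoxide dismutase, went from 940 ± 38.9 to 755 ± 2.34 FPKM (SD, n = 3 each; fold change -0.31, adjusted p = 0.0357 from limma). *Cp*, the copper-carrying plasma protein ceruloplasmin, was at 0.06, with a 95% interval from -0.16 to 0.28. Both calls were lost when WT replicate 1, WT replicate 3 or knockin replicate 1 was left out. Of 4 other manganese genes, *Slc39a8* of the transporters above included, 0 were called (0 under 0.05 before adjustment), with *Slc11a2*, a transporter of divalent metals, at 0.09 and *Atp2c1*, a Golgi pump, at -0.01.

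Because cytokines and glucocorticoids are known inducers of metallothionein, their targets were read in the same livers. Their lists too were made with earlier results of these data known, and the counts over them are a description. Of 14 acute phase genes, 5 fell and 1 rose, against 6.09% and 1.64% of all genes tested. *Saa2* went from 55.4 ± 12.3 to 9.05 ± 1.22 FPKM (fold change -2.47, adjusted p = 0.000220 from limma) and *Saa1* from 76.0 ± 13.6 to 21.1 ± 3.87 FPKM (fold change -1.80, adjusted p = 0.00104 from limma). Both encode serum amyloid A. *Lcn2*, an iron-binding lipocalin, had a fold change of -1.95 (adjusted p = 0.00480 from limma), and *Orm2*, an orosomucoid, -1.88 (adjusted p = 0.000133 from limma). *Hp*, haptoglobin, was the other that fell, at -0.64, and *Hamp* was the one that rose, at 0.64 (both named beyond the rule, after their values were seen). No gene of the list rose with no filter on low values, or with WT replicate 1, 2 or 3 or knockin replicate 1 left out. The fibrinogen genes *Fga* and *Fgg*, also acute phase genes, were at 0.23 and 0.28, with adjusted p-values of 0.233 and 0.158 (limma), and the median over the list was -0.20.

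Of 12 glucocorticoid targets, 2 fell (6.09% of all genes tested did), *Lcn2*, which is also in the acute phase list, and *Per1*, a clock gene, from 8.22 ± 2.79 to 3.37 ± 0.631 FPKM (SD, n = 3 each; fold change -1.04, adjusted p = 0.0268 from limma). The other 10 did not pass, with 8 of the 12 under 0.05 before adjustment (23.6% over all genes) and a median of -0.53. *Tat*, tyrosine aminotransferase, was at -0.59 (adjusted p = 0.1402 from limma) and *Pck1*, the gluconeogenic enzyme, at -0.24, while *Zbtb16* and *Cdkn1a* were at 1.47 and 0.85, the last pair being named after their values were seen. Without TRIM24 C52/55A replicate 2, 5 fell. Without WT replicate 1, 2 fell and 2 rose, and 1 fell without any of WT replicate 2, WT replicate 3 and TRIM24 C52/55A replicate 1. The part of either programme in the level of *Mt1* and *Mt2* was not tested.

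**Figure D4:**
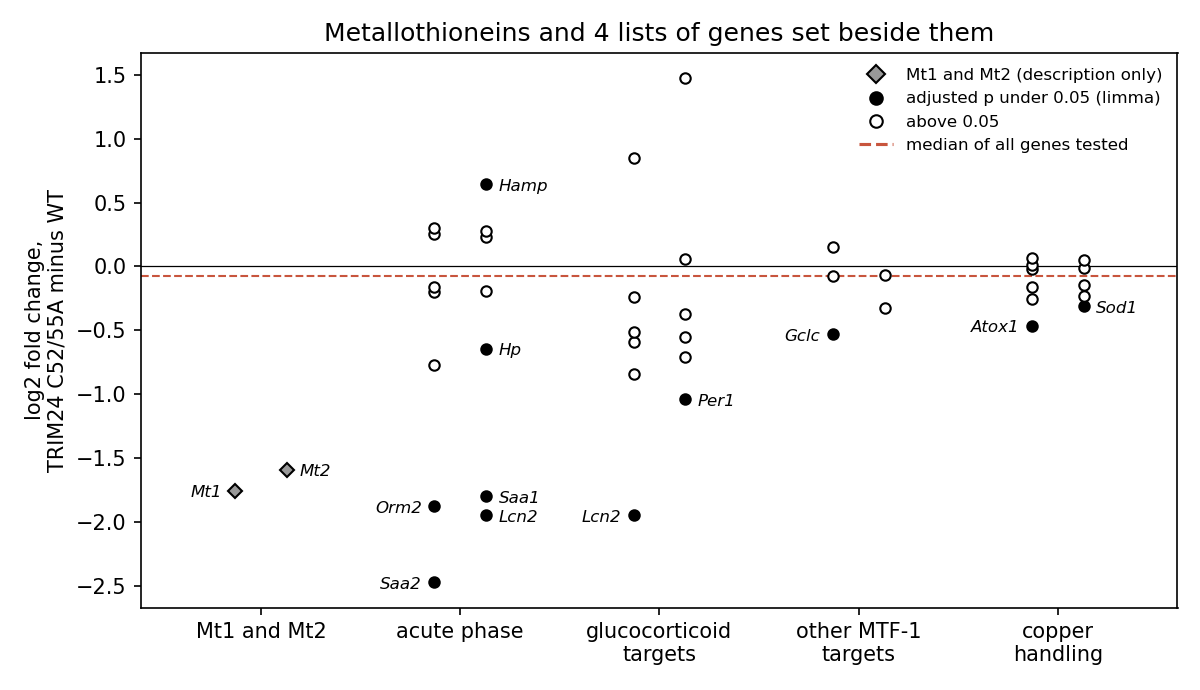
Fold change (TRIM24 C52/55A minus WT, on log2(FPKM + 1)) of *Mt1* and *Mt2* and of each tested gene of 4 lists, with filled points in the lists for an adjusted p-value under 0.05 (limma), *Mt1* and *Mt2* as diamonds, and the median of all genes as a dashed line. The acute phase genes run from -2.47 (*Saa2*) to 0.64 (*Hamp*), and *Lcn2* stands in 2 lists.

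Over the 6 libraries, the genes whose profile was most like the mean of *Mt1* and *Mt2* were *Gm7329*, *Tceal8*, *Saa1*, *Orm2* and *H2-Q1*. Likeness was the root mean square difference of log2(FPKM + 1), each gene less its own WT mean, and it was 0.173 for *Gm7329*, 0.202 for *Tceal8*, 0.204 for *Saa1*, 0.207 for *Orm2* and 0.214 for *H2-Q1*, a class I histocompatibility gene. *Mt1* and *Mt2* differed from each other by 0.262 on this measure. *Tceal8*, for example, stood at 14.0, 13.1 and 17.1 FPKM in WT, against 2.82, 4.10 and 2.84 FPKM in the knockin. *Gm7329* stood at 3.06, 2.24 and 2.89 FPKM in WT, against 0, 0.371 and 0 FPKM in the knockin. Its WT mean was 22.1 times its knockin mean, against 3.87 times for *Mt1* and 4.22 times for *Mt2*. It passed the filter on low values only through its WT level, and log2(FPKM + 1) understates its difference. Of 12223 other genes, 6 came within 0.25. The measure mostly ranks genes by a like difference between the genotypes, over few libraries.

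Markers of the cell types that whole liver can hold were read in the same libraries. The 6 hepatocyte markers summed to 19460 to 20120 FPKM in WT and 18740 to 20860 FPKM in knockin libraries. Of the 6, 3 had a positive and 3 a negative fold change, and limma called 2 (7.72% of all genes were called). These were *Cps1*, of the urea cycle, at 0.63 and *Cyp2e1*, a cytochrome P450, at -0.54, both named after their values were seen. The 7 adipocyte markers did not move together. *Adipoq* had 4.55 FPKM in TRIM24 C52/55A replicate 2, against at most 0.127 in the other 5 libraries, and *Lep*, *Plin1* and *Retn* (3.98, 3.32 and 1.59 FPKM there) were likewise at or near 0 elsewhere. *Lipe* was also highest in that library (7.71 FPKM, against 3.17 to 4.66). *Cfd* was lower in all 3 knockin libraries (0.112 to 2.54 FPKM) than in WT (3.10 to 8.62 FPKM), and *Pnpla3* overlapped between the genotypes. Limma called 0 of the 6 tested, with 1 under 0.05 before adjustment, and the list summed to 7.77 to 13.1 FPKM in WT and 4.95 to 24.4 FPKM in knockin libraries. Without TRIM24 C52/55A replicate 2 the fold changes of *Mt1*, *Mt2* and *Slc39a5* were -1.82, -1.80 and -1.0004. The 7 blood markers summed to 683 to 1810 FPKM in WT and 524 to 736 FPKM in knockin libraries, a sum carried by the 4 globin genes and highest in WT replicate 1. Each globin gene overlapped between the genotypes (fold changes -0.90 to -0.70), whereas *Alas2*, of haem synthesis in red cell precursors, was higher without overlap in the knockin (54.6 and 77.6 FPKM on average, fold change 0.48). Limma called 0 of the 7, with 5 under 0.05 before adjustment, *Alas2* among them. Without WT replicate 1 the fold changes of *Mt1*, *Mt2* and *Slc39a5* were -1.83, -1.63 and -1.04. Of 6 macrophage markers, led by *Cd5l*, 0 were called in limma (2 under 0.05 before adjustment, 145 to 191 and 126 to 169 FPKM in sum), and likewise 0 of 5 stellate markers, led by *Dcn* (2 before adjustment, 103 to 112 and 99.97 to 128 FPKM), and 0 of 4 cholangiocyte markers tested, led by *Spp1* (3 before adjustment, 28.5 to 53.8 and 21.8 to 33.9 FPKM). The 5 endothelial markers summed to 74.0 to 80.7 FPKM in WT and 67.5 to 74.2 FPKM in knockin libraries, led by *Clec4g* at -0.04. Limma called 1 of the 5, *Lyve1*, at -1.26 (named after its values were seen), and *Stab2*, *Pecam1* and *Kdr* were at -0.18, -0.05 and 0.08. The part of these cells in the differences was not tested.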

How the data were processed

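Total RNA of whole liver was sequenced by the submitters in 3 WT and 3 TRIM24 C52/55A samples. The deposited tables hold FPKM per gene, made by the authors for each library on its own. They list genes above 0 only, and a gene missing from a library was set to 0. A missing gene need not have been at 0, since *Alb* and *Tf* were listed in no library. The submitters' processing notes name GRCm38, bcl2fastq, Salmon 0.14.0 and DESeq2 1.30.0 without saying which made the FPKM. Genes whose mean reached 0.5 FPKM (12225 of 21528) were compared as log2(FPKM + 1) with limma 3.58.1 in R 4.3.3, with genotype as the only term, a variance trend, and Benjamini-Hochberg adjustment over all genes tested. An adjusted p-value under 0.05 was called. The fit was tested on simulated data. Intervals are at 95%. Python 3.11.15 with pandas 2.3.3 and scipy 1.17.1 was used for the other values. FPKM keep no read counts, and the depths of about 15800000 to 16500000 fragments are estimates from the steps between low values.

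The 8 genes and the lists set beside them were chosen with earlier results of these data known. Named were the 8 genes, the called and the 4 most abundant of the other transporters, in each other list up to 4 called genes and the 2 most abundant, the 5 genes most like the metallothioneins, and in each marker list the highest gene and any with a library above 3 times the median. Gene positions were compared with GENCODE M21. The counts for genes near the metallothionein genes do not cover every gene tested there, since 1 is not reported here. Alternatives changed the pseudocount, filter, scaling, variance trend and replicate block, or left out each library in turn.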

Additional observations from a re-analysis of the deposited data

How the results depend on the processing

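Over the 14 alternatives the log2 fold change ran from -1.94 to -1.65 for *Mt1*, from -2.09 to -1.38 for *Mt2* and from 0.38 to 0.66 for *Slc39a4*, and over the 13 that kept *Slc39a5* from -2.22 to -0.80. These ranges describe values that chose the genes and are no support for them. Over all genes, 347 were called with no filter, 1555 with TPM, 578 with the replicate block, and 294 (without TRIM24 C52/55A replicate 1) to 1280 (without TRIM24 C52/55A replicate 2) with 1 library left out. TPM called 1 other zinc transporter. Of the copper genes, 1 was called with no filter, median-of-ratios scaling, quantile normalization, no variance trend or the replicate block, and 0 to 2 with 1 library left out. Of the MTF-1 targets, 0 were called with quantile normalization and 0 to 1 with 1 library left out. Of the glucocorticoid targets, 1 was called with no filter, 4 with the replicate block, and 1 to 5 with 1 library left out. The acute phase count was 4 with no filter and 5 to 7 with 1 library left out. The difference in the log2 ratio of *Mt1* to *Mt2* ran from -0.0371 to 0.471 with 1 library left out and was -0.1633 with a pseudocount of 1 added to both genes. The cause of these changes was not tested.

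Fold changes near 0 changed sign. With median-of-ratios scaling and quantile normalization, *Mtf1* had 0.0677 and 0.0424, *Slc30a1* 0.029 and 0.0116, and *Slc39a14* 0.0602 and 0.1077, and with TPM *Slc30a10* had -0.0438. With 1 library left out, *Mtf1* ran from -0.2145 to 0.0844, *Slc30a1* from -0.1645 to 0.0265, *Slc30a10* from -0.0388 to 0.0543 and *Slc39a14* from -0.2513 to 0.1226.

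The labels do not say that replicate numbers pair the samples. The deviations of same-numbered libraries correlated at -0.123, -0.099 and 0.003, and those of different-numbered libraries at -0.051 to 0.142. With 3 libraries for each genotype, this cannot show whether the samples were paired. Depth limits *Mt2* and *Slc39a5* in the knockin livers, at a few fragments per library.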
